A study of Homo sapiens with 4 samples.

Results

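The genes described here are the replication-dependent histone genes that gave reads in mRNA libraries of 2 human lung cancer cell lines. They were taken as the protein-coding rows whose older symbol begins with HIST1H, HIST2H or HIST3H and that had at least 10 reads over exons in 1 or more of the libraries. This gave 34 members among 70 such rows and 43622 genes in all. The submitters set spheroids, which are multicellular aggregates, against adherent cells of the same line in a study of triacylglycerol synthesis. The groups were A549 spheroids, A549 adherent cells, H1993 spheroids and H1993 adherent cells, with 1 library each, and the labels record no treatment for any of them. A549 and H1993 are established lung adenocarcinoma lines, and all 4 libraries carry the cell type label lung epithelial cell.

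Replication-dependent histones package newly copied DNA, and their genes stand in clusters and are read mainly in S phase. Their mRNAs are the known exception to polyadenylation in animal cells: they normally end just after a short stem-loop that is bound by SLBP, and carry no poly(A) tail. Some of these genes also give longer, polyadenylated transcripts, which have been described in differentiated and resting cells. A kit that selects mRNA by its poly(A) tail therefore measures the tailed transcripts and whatever tailless mRNA is carried through, and these cannot be told apart by the read counts here.

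Exon reads per library ran from 15331121 to 17681746, and 93.0% to 93.6% of them were unique. With 1 library per group no difference between libraries has a replicate check, and every interval given here is a 95% Clopper-Pearson interval that covers counting error only. Across 14759 autosomal genes, which are not independent replicates, Pearson's r of the library labelled H1993 adherent was 0.947 with A549 adherent cells and 0.845 with H1993 spheroids. That library goes against its line label in this correlation and is named by the label throughout. Of the comparisons that hold an H1993 library, the one between the 2 spheroid libraries does not use it. Of 8 lung epithelial markers, 6 or 7 had at least 10 reads in each library, with a summed level of 5861 and 10990 CPM (reads per 1000000, TMM-scaled) in A549 spheroids and adherent cells, and 11480 and 4194 CPM in H1993 spheroids and in the library labelled H1993 adherent. Of the alveolar markers, SFTPB had 0 to 2 reads in every library, and NKX2-1 had 0 reads in both A549 libraries, 13 in H1993 spheroids and 12 in the library labelled H1993 adherent. Summed levels were 13.0 to 46.9 CPM for 5 fibroblast markers, 16.3 to 90.0 CPM for 4 leukocyte markers, mostly from CD68, and 0.693 to 7.84 CPM for 4 endothelial markers. The defining leukocyte marker PTPRC had 0 reads in 3 libraries and 45 in H1993 spheroids, and whether other cells contributed to any result was not tested.

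The ends of the annotated transcripts divide this gene family. GENCODE release 29 gave all 70 rows the same start and end as the deposited tables. In its coding transcripts, a histone stem-loop was searched as 6 pairing bases that run from GG to T, a loop TNTN and the facing arm from A to CC, and a polyadenylation signal as AATAAA or ATTAAA in the last 40 bases. A stem-loop was found in 31 rows, 25 of them members, and began 23 to 68 bases after the stop codon (median 37). The following windows from GRCh38 show its forms, with the stem-loop in capitals.
HIST1H2AC stem-loop, chr6:26124664-26124689, plus strand: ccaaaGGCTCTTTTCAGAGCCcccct
HIST2H2BE stem-loop, chr1:149886183-149886208, minus strand: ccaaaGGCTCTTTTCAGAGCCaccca
HIST1H2BD stem-loop, chr6:26158582-26158607, plus strand: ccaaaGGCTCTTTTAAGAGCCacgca
HIST1H3E stem-loop, chr6:26225591-26225616, plus strand: ccaaaGGCTCTTCTCAGAGCCaacca
HIST1H4H stem-loop, chr6:26285126-26285151, minus strand: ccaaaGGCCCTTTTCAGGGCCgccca
HIST2H4B stem-loop, chr1:149860764-149860789, minus strand: ccaaaGGCCCTTTTTAGGGCCgacca
HIST1H2AG stem-loop, chr6:27133510-27133535, plus strand: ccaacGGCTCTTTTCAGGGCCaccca
The form of HIST1H2AC was the commonest, in 14 members, and HIST1H2BD had the form found in 4. All 5 H4 members with a stem-loop had a stem of GGCCC, as in HIST1H4H and HIST2H4B, and each H2A, H2B or H3 member with one had GGCTC. HIST1H3E had a loop seen in no other row, and HIST1H2AG was the one row with a first arm of GGCTC and a second arm that ends in GGGCC.

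Beyond the stem-loop, 22 rows had a coding transcript that reached a polyadenylation signal, and all 22 were members. Of the 48 rows without one, 12 were members. In 35 of the 48 the annotated models stop at the stop codon, so neither motif could be found there. The signals of some of the most read members are shown in capitals.
HIST1H2AC signal, chr6:26139080-26139102, plus strand: catgaggtAATAAAaggtaatgc
HIST2H2BE signal, chr1:149884465-149884490, minus strand: ttgttattAATAAAgttaccaattaa
HIST1H3E signal, chr6:26227444-26227469, plus strand: agatgtaaAATAAAagattactgaac
HIST1H4H signal, chr6:26281062-26281087, minus strand: aaaaggtgAATAAAatcaggtcactc
HIST2H2AA3 signal, chr1:149842192-149842217, minus strand: cgttttcaAATAAAagagttgttaat
HIST3H2A signal, chr1:228456985-228457010, minus strand: tatctgatATTAAAagtatttatgat
Of these 22, 21 had both motifs and HIST1H2BJ had a signal only. In HIST1H2BC, HIST1H2BD and HIST1H2BN a transcript was spliced past the stem-loop to a signal in a later exon. In HIST1H4J the hexamer lay before the stem-loop. A signal lay in the last 40 bases of 80.8% of 19659 protein-coding genes. The other 12 members were 4 with a stem-loop only, 7 whose annotation stopped at the stop codon (among them HIST1H1C and HIST1H2BK) and HIST1H1E, with neither motif. For those 7 the absence of a motif is a limit of the annotation and not a finding about their mRNA. The median highest read count per row was 65 for the 21 rows with both motifs and 2 for the 35 rows that ended at the stop codon. Models of the first kind were 373 to 5477 bases long and of the second 297 to 775, so longer models collect more reads, and the share of this difference that comes from length was not tested. In deposited TPM, which is per exon length, the 2 medians were 9.04 and 1.01.

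**Figure D1:**
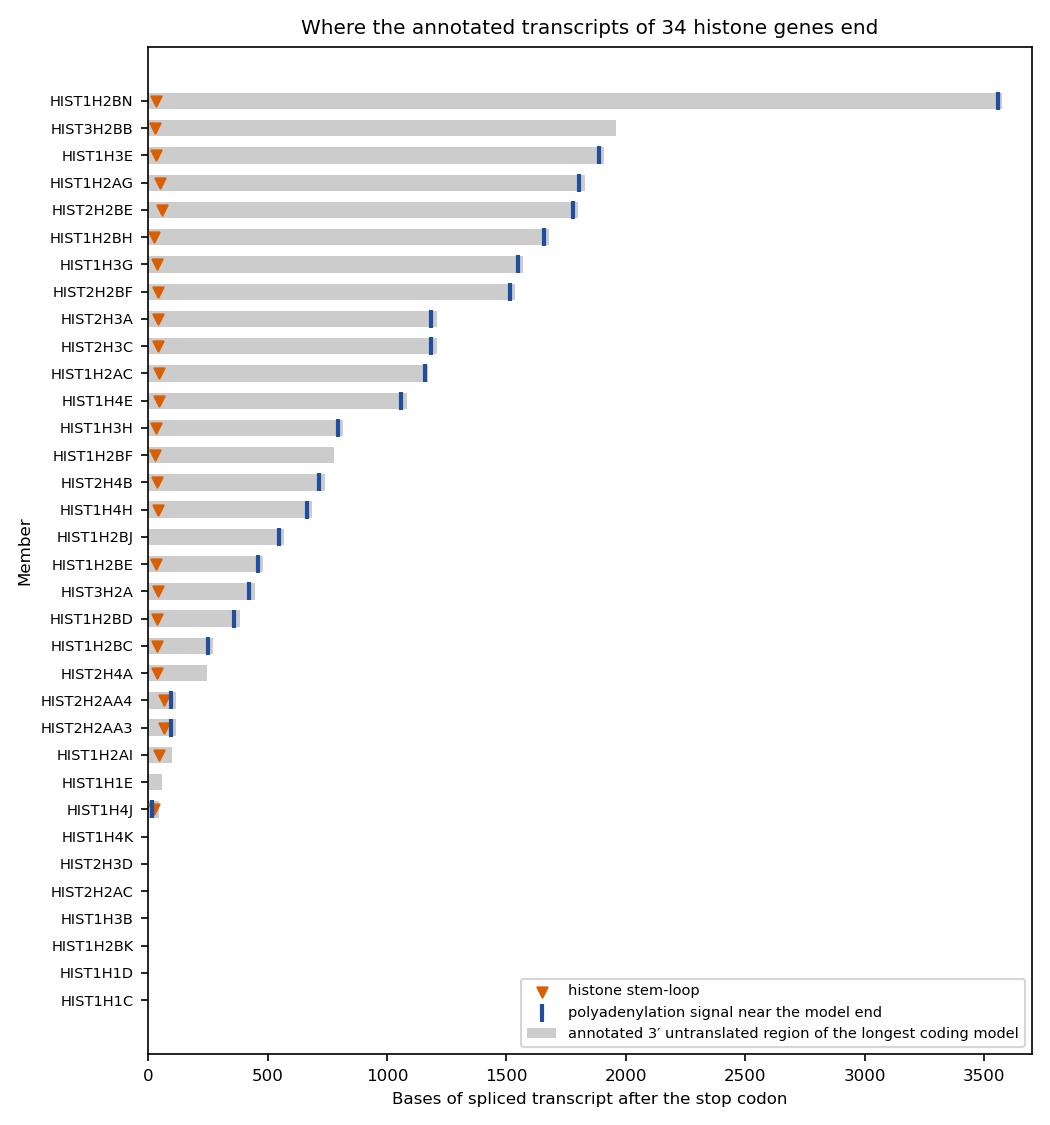
Annotated 3′ untranslated region of the longest coding model of each of the 34 members (grey bars, bases of spliced transcript after the stop codon), with the stem-loop (orange triangles) and the polyadenylation signal near a model's end (blue bars), each placed from whichever coding model of the gene holds it. The stem-loops lie 23 to 68 bases after the stop codon in 25 members, while models with a signal run on for up to 3575 bases, and 7 members have no annotated region past the stop codon.

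Exon-exon reads showed that spliced transcripts were present. In HIST1H2AC, an H2A gene annotated with a second exon, 21 and 5 junction reads were counted in A549 spheroids and adherent cells, and 16 and 6 in H1993 spheroids and in the library labelled H1993 adherent. For HIST1H2BD there were 21 in A549 spheroids, 14 in A549 adherent cells, 20 in H1993 spheroids and 14 in the library labelled H1993 adherent. HIST1H4H and HIST1H3E had 0 to 8 junction reads per library.

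Promoter sequences followed the histone class. RefSeq windows (GRCh38.p14) of 250 bases before to 50 after the start were found for 31 of the 34 members, and 3 of them are shown because they stand for the class difference and for members that differed between libraries. Capitals mark TATAAA on the gene strand and, on either strand, CCAAT and the octamer ATTTGCAT.
HIST2H2BE promoter, chr1:149886633-149886932, minus strand: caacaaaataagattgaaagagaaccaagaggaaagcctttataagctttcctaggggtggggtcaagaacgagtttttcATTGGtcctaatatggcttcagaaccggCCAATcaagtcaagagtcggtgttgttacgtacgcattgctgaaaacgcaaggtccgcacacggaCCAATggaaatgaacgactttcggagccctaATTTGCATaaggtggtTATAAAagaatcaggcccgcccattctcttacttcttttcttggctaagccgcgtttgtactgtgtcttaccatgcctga
HIST1H2AC promoter, chr6:26123922-26124221, plus strand: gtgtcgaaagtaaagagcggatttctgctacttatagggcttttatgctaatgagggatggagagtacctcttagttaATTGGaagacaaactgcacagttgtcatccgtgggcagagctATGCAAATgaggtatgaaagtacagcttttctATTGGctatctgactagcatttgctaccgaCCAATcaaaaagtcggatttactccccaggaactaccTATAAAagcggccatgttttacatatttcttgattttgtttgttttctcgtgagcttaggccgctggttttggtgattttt
HIST1H4H promoter, chr6:26285485-26285784, minus strand: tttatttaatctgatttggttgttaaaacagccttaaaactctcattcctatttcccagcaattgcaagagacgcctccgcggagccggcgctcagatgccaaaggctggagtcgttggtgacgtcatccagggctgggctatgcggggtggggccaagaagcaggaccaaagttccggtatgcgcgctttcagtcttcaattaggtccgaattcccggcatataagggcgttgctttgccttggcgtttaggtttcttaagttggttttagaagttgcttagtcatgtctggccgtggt
CCAAT was in all 25 windows of H1, H2A, H2B and H3 members and in 0 of 6 windows of H4 members, against 34.6% of all 35116 promoters. The octamer, the motif of the POU factors, was in 8 of 11 H2B windows and 3 of 5 H2A windows, in none of the others, and in 1.77% of all promoters. TATAAA was in 54.8% of the member windows and 7.33% of all promoters. TTTNNCGC, an E2F-like motif searched on both strands, was in 16.1% and 6.89%. Windows of divergent neighbours such as HIST1H2AC and HIST1H2BC cover much of the same bases, so members are not independent here, and a match does not show a site in use.

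The histone reads were few and concentrated in a few genes. The 34 members summed to 3039 exon reads in A549 spheroids (0.0172% of exon reads) and 1755 in A549 adherent cells (0.0112%). They summed to 5344 in H1993 spheroids (0.0349%) and 2424 in the library labelled H1993 adherent (0.0146%). H1993 spheroids were the highest of the 4 and A549 adherent cells the lowest. After TMM scaling the log2 ratio of these sums was 0.73 (0.64 to 0.81) for A549 spheroids over adherent cells and 1.32 (1.25 to 1.39) for H1993 spheroids over the library labelled H1993 adherent. It was 0.93 (0.87 to 1.0) for H1993 over A549 spheroids and 0.34 (0.25 to 0.43) for the library labelled H1993 adherent over A549 adherent cells. Summed as TPM, the A549 pair gave 0.38 and the spheroid libraries 1.40. Of the members, 19 had at least 10 reads in all 4 libraries, 11 reached 100 reads in some library, and 12 reached 10 reads in 1 library only, which was H1993 spheroids for 8 of them. The remaining 36 rows had 0 reads everywhere (11 rows) or a highest count of 1 to 9 (25 rows). Just inside the limit, HIST2H3D (H3) and HIST1H4K (H4) had a highest count of 10, in H1993 spheroids, and just outside it HIST1H4I had a highest count of 9, in A549 adherent cells.

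The members lie in 3 clusters of the hg38 genome, as the deposited tables place them. HIST1 (22 members) spans chr6:25726132-27893843, HIST2 (10 members) chr1:149782689-149887916 and HIST3 (2 members) chr1:228424845-228460470, and 23 members have a single exon. By class the members were 3 genes for the linker histone H1, 7 for H2A, 11 for H2B, 7 for H3 and 6 for H4. The linker histone gene HIST1H1C had the highest TPM of all members in both spheroid libraries. It stood at 160 TPM in A549 spheroids and 86.0 TPM in A549 adherent cells, and at 445 TPM in H1993 spheroids and 119 TPM in the library labelled H1993 adherent. The other H1 members were low: HIST1H1D had 8 and 4 reads in A549 spheroids and adherent cells and 6 and 11 in H1993 spheroids and in the library labelled H1993 adherent, and HIST1H1E had 4 reads in A549 spheroids, 4 in A549 adherent cells, 14 in H1993 spheroids and 5 in the library labelled H1993 adherent. The H2B gene HIST1H2BK had the highest TPM of all members in both libraries labelled adherent. It had 77.4 and 112 TPM in A549 spheroids and adherent cells, and 228 and 129 TPM in H1993 spheroids and in the library labelled H1993 adherent. The models of HIST1H1C and HIST1H2BK hold the coding sequence only, so their TPM rests on coding length. Among the H2A genes, HIST1H2AC had 95.9 and 37.3 TPM in A549 spheroids and adherent cells, and 91.2 and 42.0 TPM in H1993 spheroids and in the library labelled H1993 adherent. HIST2H2AA3 had 53.4 TPM in A549 spheroids, 42.0 in A549 adherent cells, 263 in H1993 spheroids and 52.2 in the library labelled H1993 adherent. No H3 member passed 16 TPM in any library, the highest being HIST1H3E at 15.5 TPM in A549 spheroids.

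**Figure D2:**
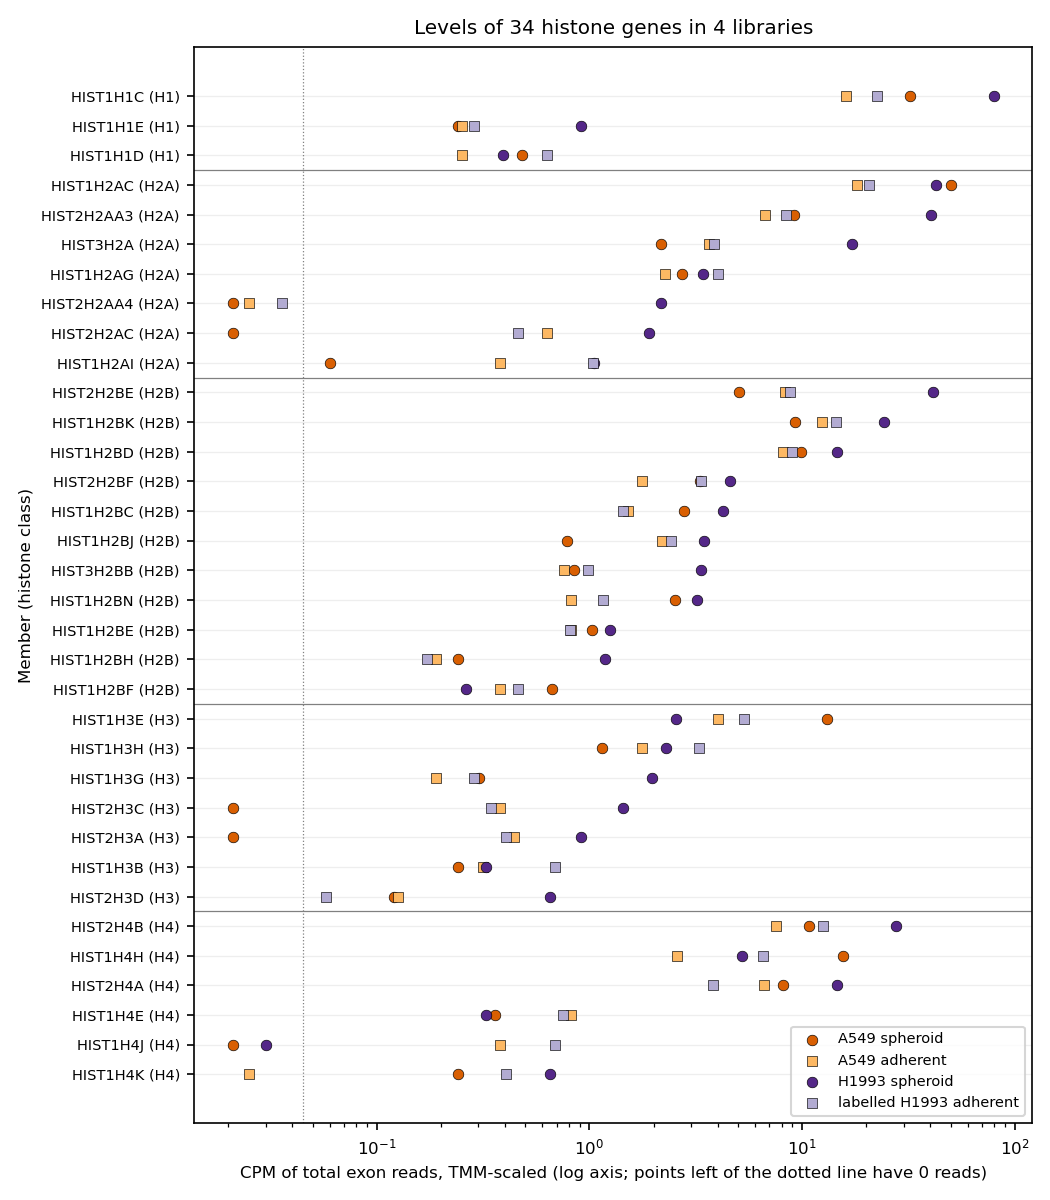
TMM-scaled CPM of total exon reads (log axis) for the 34 members, grouped by histone class, in A549 spheroids (orange circles), A549 adherent cells (pale orange squares), H1993 spheroids (purple circles) and the library labelled H1993 adherent (pale purple squares), 1 library each. Points left of the dotted line stand for 0 reads. HIST1H1C in H1993 spheroids is the highest point at 79.7 CPM, and the pale squares lie close together for most members.

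Near-identical copies limit what some of these counts mean. All reads were unique for 19 members, under 50% were unique for 8, and none was unique in any library for 4 (HIST1H4K, HIST2H2AA3, HIST2H3A and HIST2H3C). At least 1 of the 50-base words of a member's model occurred in another gene for 25 members, and over 50% of the words did for 11. HIST2H2AA3 and HIST2H2AA4, HIST2H3A and HIST2H3C, and HIST2H4A and HIST2H4B are pairs of duplicated genes in the HIST2 cluster, and how the counts were divided between copies is not given in the sources used here. Of HIST1H2BK, 74.1% of words were shared, mainly with H2BFS, and 58.9% of its reads were unique. HIST1H1C and HIST1H4H shared no word. Exons of 7 members overlap another gene, mostly on the opposite strand, as for HIST2H4A with HIST2H3C, and the sources used here do not say if reads were assigned by strand.

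**Figure D3:**
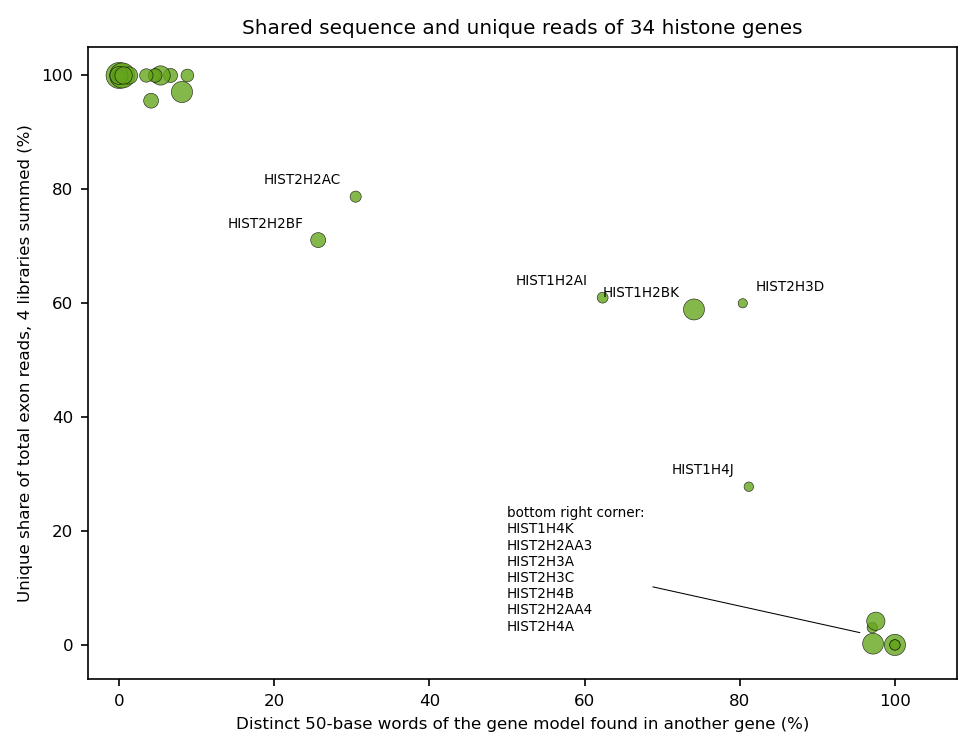
Share of distinct 50-base words of each member's model that occur in another gene (x axis, percent) against the unique share of its exon reads summed over the 4 libraries (y axis, percent), with point area growing with the read count. The 7 members in the lower right corner share at least 97.1% of their words and have at most 4.16% unique reads.

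In A549 cells some HIST1 genes were higher in spheroids and most other members differed by less than 2-fold. Folds are on the log2 scale with TMM scaling and a prior count of 2, and a member was called higher or lower when it passed edgeR's filter on low counts, differed by at least 2-fold and had an interval without 0. Of the 34 members, 22 passed that filter, 19 of them with at least 10 reads in all 4 libraries. HIST1H2AI, HIST1H4E and HIST2H2AC were the others, and members that pass mainly through a high library are bound to differ, so the counts are a description. In A549 spheroids 5 of the 22 were called higher, against 12.4% of 15273 genes, and 2 were called lower, against 10.3%. The median log2 fold of the 22 was 0.28, beside 0.00 for all genes. Without the filter, 4 of all 34 members were called higher, against 9.0% of 25304 genes, and 5 lower, against 7.09%. The 25304 are all genes with any read, while members were chosen for at least 10 reads in some library. Shares without the filter are therefore not like for like. The 3 added to the lower calls were HIST2H3A, HIST2H3C and HIST1H4J, with 0 spheroid reads each and 7, 6 and 6 adherent reads.

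The H4 gene HIST1H4H had 257 reads in A549 spheroids and 41 in A549 adherent cells, a log2 fold of 2.53 (2.11 to 3.10), the highest of the 22. HIST1H3E, an H3 gene, had 216 spheroid and 64 adherent reads (1.66, 1.28 to 2.12), and HIST1H2AC had 830 spheroid and 286 adherent reads (1.47, 1.28 to 1.67). All 3 were thus well above the adherent library. The H2B gene HIST1H2BN had 42 reads in A549 spheroids and 13 in A549 adherent cells (1.5, 0.70 to 2.65). HIST1H1C had 534 spheroid and 254 adherent reads (1.0, 0.79 to 1.23), which lies at the limit of the call, and its log2 fold was 0.89 when scaled by library size only. Lower in A549 spheroids were HIST1H2BJ, with 13 spheroid and 35 adherent reads (-1.36, -2.53 to -0.54), and HIST2H2AC, with 0 spheroid and 10 adherent reads, at least 3.48-fold lower against a floor of 3 reads. The H2B genes HIST2H2BE, with 84 spheroid and 132 adherent reads (-0.70), and HIST1H2BK, with 153 spheroid and 197 adherent reads (-0.42), were not called, nor were HIST1H2BD (163 spheroid and 129 adherent reads, 0.27) and HIST1H2BC (46 spheroid and 24 adherent reads, 0.83). HIST2H4A, HIST2H4B and HIST2H2AA3 had log2 folds of 0.29, 0.52 and 0.45 and were not called.

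In the H1993 pair, more members were called higher in spheroids. Among the 22 that passed the filter, the 4 highest log2 folds were those of the HIST2 and HIST3 members HIST2H2AA3, HIST2H2BE, HIST3H2A and HIST2H4A. With its copy HIST2H4B, HIST2H4A gave 1.37, below HIST1H1C (1.82). Members that did not pass the filter reached 4.21 (HIST2H2AA4), 2.34 (HIST1H3G), 2.14 (HIST1H2BH) and 2.11 (HIST2H3D), on 10 to 33 spheroid reads. Of the 22, 11 were called higher in H1993 spheroids than in the library labelled H1993 adherent, against 17.0% of all genes, and 1 was called lower, against 18.0%. Without the filter 17 of all 34 members were called higher, against 13.4% of 25304 genes, and on unique reads 7 of 17 that passed the filter were, against 17.0% of 14321 genes. Of the 17 called without the filter, 6 had not passed it. As 8 members reached 10 reads in H1993 spheroids only, that count is partly set by how members were chosen. The median log2 fold was 0.89, beside 0.00 for all genes. HIST2H2AA3 had 616 spheroid and 146 adherent-labelled reads (2.24, 2.0 to 2.53), and with its copy HIST2H2AA4 649 spheroid and 146 adherent-labelled reads (2.34, 2.07 to 2.60). HIST2H2BE had 632 reads in H1993 spheroids and 152 in the library labelled H1993 adherent (2.22, 1.98 to 2.50). The H2A gene HIST3H2A had 263 spheroid and 67 adherent-labelled reads (2.12, 1.76 to 2.57) and its divergent neighbour HIST3H2BB 51 spheroid and 17 adherent-labelled reads (1.65, 0.95 to 2.65). Reads of these genes in H1993 spheroids thus exceeded those in each of the other 3 libraries.

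HIST1H1C had 1218 reads in H1993 spheroids and 389 in the library labelled H1993 adherent (1.82, 1.66 to 2.0). The H4 copies HIST2H4A and HIST2H4B summed to 644 spheroid and 283 adherent-labelled reads (1.37, 1.17 to 1.58), with 1.91 and 1.13 for each copy alone. HIST1H2AC had 649 spheroid and 357 adherent-labelled reads (1.04, 0.86 to 1.24), close to the limit, and 0.98 when scaled by library size only. HIST2H2AC (29 spheroid and 8 adherent-labelled reads, 1.79), HIST1H2BC (65 spheroid and 25 adherent-labelled reads, 1.49) and HIST1H2BN (49 spheroid and 20 adherent-labelled reads, 1.38) were also called higher. HIST1H3E was the member called lower, with 39 spheroid and 92 adherent-labelled reads (-1.02, -1.63 to -0.50). HIST1H4H had 80 spheroid and 113 adherent-labelled reads (-0.31, -0.75 to 0.11), and HIST1H2BD, HIST1H2BK and HIST1H2BJ had log2 folds of 0.70, 0.74 and 0.50, and these 4 were not called. The HIST2 member HIST2H2BF, with 70 spheroid and 58 adherent-labelled reads (0.44, -0.07 to 0.98), was not called either. Among members that did not pass the filter, HIST1H3G had 30 spheroid and 5 adherent-labelled reads and HIST1H4J 0 spheroid and 12 adherent-labelled reads.

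**Figure D4:**
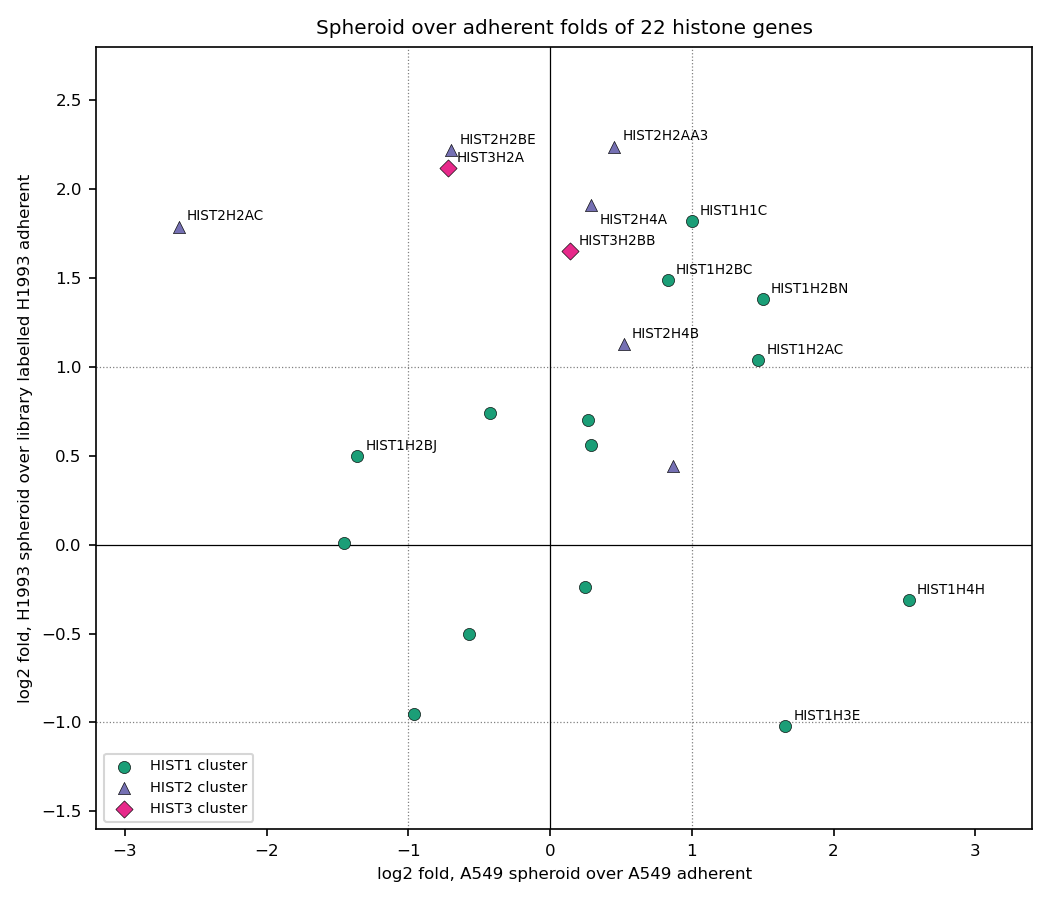
Log2 fold of A549 spheroids over A549 adherent cells (x axis) against log2 fold of H1993 spheroids over the library labelled H1993 adherent (y axis) for the 22 members that passed the filter, by gene cluster. Dotted lines mark 2-fold and names are given for members called in either pair. HIST1H4H (2.53 and -0.31) and HIST1H3E (1.66 and -1.02) lie at the lower right, HIST2H2BE (-0.70 and 2.22) and HIST2H2AC (-2.62 and 1.79) at the upper left.

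By cluster, HIST1, on chromosome 6, held 14 of the 22 members that passed the filter and all 5 calls of higher in A549 spheroids. The share of all genes called higher there was 12.4%. Summed HIST1 reads were 2382 in A549 spheroids and 1170 in A549 adherent cells, a log2 ratio of 0.96 (0.86 to 1.06). They were 2960 in H1993 spheroids and 1679 in the library labelled H1993 adherent, a log2 ratio of 1.0 (0.91 to 1.09). For HIST2, on chromosome 1, the log2 ratio was 0.17 (0.00 to 0.35) in the A549 pair, from 607 spheroid and 515 adherent reads, and 1.83 (1.70 to 1.96) in the H1993 pair, from 2070 spheroid and 661 adherent-labelled reads. Most HIST2 reads were not unique, with 19.9% unique in A549 spheroids and 32.2% in A549 adherent cells. Unique HIST2 reads went the other way in the A549 pair, with 121 spheroid and 166 adherent reads, of which HIST2H2BE gave 80 and 130. In the H1993 pair they were 704 spheroid and 201 adherent-labelled reads, of which HIST2H2BE gave 615 and 146. The unique HIST2 reads thus stand mainly for 1 gene. For the HIST3 genes HIST3H2A and HIST3H2BB the log2 ratio of summed reads was -0.55 (-1.10 to 0.00) in the A549 pair and 2.09 (1.73 to 2.45) in the H1993 pair. Without HIST1H1C the HIST1 ratio in the H1993 pair was 0.62 (0.51 to 0.72), and without HIST1H2AC that in the A549 pair was 0.75 (0.63 to 0.87). The intervals of HIST2 did not overlap between the lines, nor did those of HIST3, and these differences have no replicate check. Without HIST3H2A, HIST3H2BB alone gave 0.16 (-1.06 to 1.40) in the A549 pair and 1.77 (0.95 to 2.65) in the H1993 pair, intervals that overlap. Other kept protein-coding genes within 1 Mb had median log2 folds in the H1993 pair of -0.30 around HIST1 (27 genes), 0.21 around HIST2 (25 genes) and 0.30 around HIST3 (17 genes), against 0.53, 1.85 and 1.89 for the members.

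By class, the summed log2 ratio of A549 spheroids over adherent cells was 1.0 for H1, 1.02 for H2A, 1.03 for H3 and 0.97 for H4, and -0.04 (-0.21 to 0.13) for H2B. In the H1993 pair it was 1.80 for H1, 1.5 for H2A, 1.24 for H2B and 0.97 for H4, and -0.03 (-0.35 to 0.29) for H3. Single genes led several of these sums, so that a class ratio can rest on 1 gene. HIST1H1C gave 534 of the 546 H1 reads in A549 spheroids, and HIST1H3E 216 of the 246 H3 reads there. Without HIST1H3E the H3 ratio was -0.83 (-1.53 to -0.15) in the A549 pair, from 30 spheroid and 51 adherent reads, and 0.58 (0.17 to 1.0) in the H1993 pair, from 116 spheroid and 88 adherent-labelled reads. In the A549 pair the H2A ratio without HIST1H2AC was 0.05 (-0.22 to 0.33) and the H4 ratio without HIST1H4H was 0.35 (0.11 to 0.60). In the H1993 pair the H1 ratio without HIST1H1C was 0.51 (-0.52 to 1.55). The H4 ratio there rested on the copies HIST2H4A and HIST2H4B, whose reads are mostly not unique. They gave 644 of the 739 H4 reads in H1993 spheroids and 283 of the 428 in the library labelled H1993 adherent. Unique H4 reads went the other way, with 94 in H1993 spheroids and 135 in the library labelled H1993 adherent. HIST1H4H gave 80 of these 94 and 113 of these 135, so the unique H4 reads stand mainly for 1 gene.

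**Figure D5:**
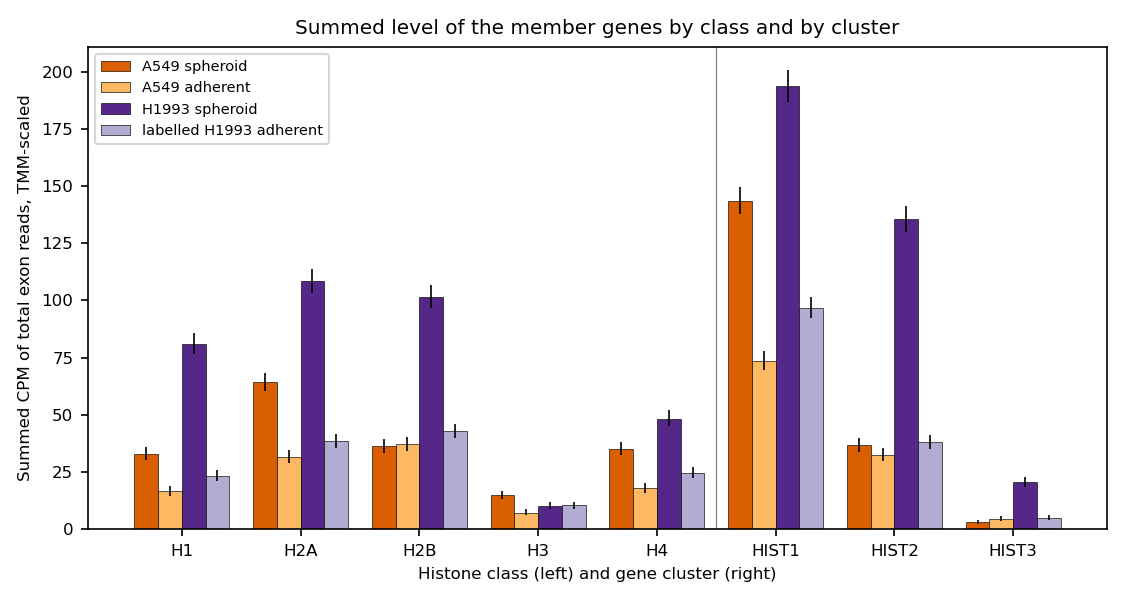
Summed TMM-scaled CPM of the members by histone class (left) and gene cluster (right) in the 4 libraries, with 95% Clopper-Pearson intervals of the counts as error bars. H1993 spheroids are highest for H1, H2A, H2B and H4 and in all 3 clusters, and A549 spheroids are highest for H3.

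The 2 spheroid libraries were compared without the library whose label is in doubt. This comparison has the H1993 spheroid library in common with the H1993 pair, so its values stand beside that pair and are no independent support. Of the 22 members, 10 were called higher in H1993 spheroids than in A549 spheroids, against 18.0% of all genes, and 2 lower, against 19.1%, with a median log2 fold of 0.88, beside 0.01 for all genes. Without the filter 17 of all 34 members were called higher, against 13.7% of 25304 genes, and on unique reads 6 of 17 that passed the filter were, against 17.9% of 14321 genes. Of the 17 called without the filter, 7 had not passed it, and that count is again partly set by how members were chosen. HIST2H2BE (632 H1993 and 84 A549 reads, 3.0), HIST3H2A (263 H1993 and 36 A549 reads, 2.92) and HIST2H2AA3 (616 H1993 and 152 A549 reads, 2.12) were the highest of those with at least 100 reads. HIST2H2AC had 29 H1993 and 0 A549 reads, at least 10.5-fold higher against the floor. HIST1H2AI had 16 H1993 and 1 A549 reads (2.67, 1.43 to 9.51). HIST1H2BJ, HIST3H2BB, HIST1H2BK, HIST2H4B and HIST1H1C had log2 folds of 1.99, 1.84, 1.38, 1.34 and 1.30. Lower in H1993 spheroids were HIST1H3E (39 H1993 and 216 A549 reads, -2.30, -2.88 to -1.85) and HIST1H4H (80 H1993 and 257 A549 reads, -1.54, -1.95 to -1.20). HIST1H2AC had 649 H1993 and 830 A549 reads (-0.24, -0.39 to -0.09) and was not called. HIST2H4A (0.83) and HIST1H2BD (0.56) were not called either.

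Between the 2 libraries labelled adherent few of these genes were called. Of the 22, 2 were called higher in the library labelled H1993 adherent than in A549 adherent cells, against 6.94% of all genes, and 0 lower, against 5.49%, with a median log2 fold of 0.27, beside 0.00 for all genes. These were HIST1H4H, with 113 H1993-labelled and 41 A549 reads (1.29, 0.81 to 1.89), and HIST1H2AI, with 18 H1993-labelled and 6 A549 reads (1.21, 0.06 to 3.08). HIST2H4A (-0.78) and HIST2H4B (0.73) went opposite ways without a call, and their summed reads (283 H1993-labelled and 224 A549 reads) gave a log2 ratio of 0.21 (-0.05 to 0.47). HIST1H1C, HIST2H2AA3, HIST1H2BK, HIST1H2AC, HIST1H2BD and HIST2H2BE lay between 0.07 and 0.48.

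Over both lines together, a model with culture and line as terms left 1 residual degree of freedom. In edgeR's quasi-likelihood test 0 of the 22 members and 0.0% of all genes passed an adjusted p of 0.05. At an unadjusted p under 0.05, 2 members passed, against 4.69% of all genes higher and 3.54% lower. These were HIST1H1C, with a log2 fold of 1.42 (edgeR adjusted p = 0.539), and HIST1H2AC, with 1.26 (edgeR adjusted p = 0.575), and both were higher in spheroids of both lines. At an adjusted p under 0.05 DESeq2 also called 0 members, with 3 adjusted p values not given, against 2.19% of all genes higher and 1.68% lower. At an unadjusted p under 0.05 DESeq2 gave 2 members, and no share of all genes is given for that threshold.

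Genes of DNA replication and of histone mRNA and protein handling were read beside the histone genes. All 30 listed S phase and replication genes were called lower in A549 spheroids (median log2 fold -3.47), against 10.3% of all genes. Of the 22 histone members 5 were called higher there, against 12.4%. Named by size, MYBL2, a cell cycle transcription factor, had 17 reads in A549 spheroids and 1656 in A549 adherent cells (-6.51). CDC45 (-5.56) and GINS2 (-5.46), parts of the replicative helicase, cyclin A gene CCNA2 (-5.42) and thymidine kinase TK1 (-5.37) were also lower. In the H1993 pair 2 of the 30 were called higher and 4 lower (median -0.33), against 17.0% and 18.0% of all genes. In H1993 over A549 spheroids 27 were higher and 0 lower (median 3.01), against 18.0% and 19.1%. Whether the share of cells in S phase bears on the histone counts was not tested, and in bulk RNA fewer cycling cells and less RNA per cell cannot be told apart.

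Of 29 measured genes for histone transcription and 3′ end formation, 0 were called higher and 8 lower in A549 spheroids, against 12.4% and 10.3% of all genes. In H1993 spheroids against the library labelled H1993 adherent 5 were called higher and 2 lower, against 17.0% and 18.0%. The higher calls there were thus near the share of all genes. SLBP, which binds the stem-loop, had 627 reads in A549 spheroids and 1235 in A549 adherent cells (-1.04), and 1303 in H1993 spheroids and 1267 in the library labelled H1993 adherent (0.22). NPAT, the coactivator of histone genes that cyclin E kinase phosphorylates, had 219 spheroid and 310 adherent reads (-0.56) in the A549 pair, and 708 spheroid and 322 adherent-labelled reads (1.31, called higher) in the H1993 pair. CASP8AP2 (FLASH), a factor of histone pre-mRNA cleavage, had 251 spheroid and 546 adherent reads (-1.18) in the A549 pair, and 408 spheroid and 579 adherent-labelled reads (-0.32) in the H1993 pair. The A549 and H1993 log2 folds were -4.37 and 1.32 for cyclin E gene CCNE2, -1.09 and 2.55 for CCNE1 and -2.43 and -1.27 for CDK2, their kinase. SNRPB, a core protein of small nuclear RNPs, had -1.29 and -1.43, and SRRT, a cap complex partner, -1.28 and 0.77.

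The counts of the next 3 lists stand beside 12.4% of all genes called higher and 10.3% lower in the A549 pair. In the H1993 pair these shares were 17.0% and 18.0%. Of 20 genes of the ordinary cleavage and polyadenylation machinery, 0 were called higher and 1 lower (CSTF3, -1.13) in the A549 pair, and 4 higher and 1 lower in the H1993 pair. CPSF1, CPSF4, CPSF6 and PABPC1 were the 4 (1.43, 1.16, 1.03 and 1.30), and CSTF2T had 57 spheroid and 627 adherent-labelled reads (-3.23). The kinds of end made cannot be read from these counts. Of 23 histone chaperones and deposition factors, 12 were called lower in A549 spheroids, led by ASF1B (10 spheroid and 431 adherent reads, -5.23), CHAF1A (-3.40), CHAF1B (-3.34), MMS22L (-2.72) and TONSL (-2.63), and 0 were called either way in the H1993 pair. The replacement histone list held 12 kept genes, most of which are polyadenylated and also used outside S phase. Among the 12 was HIST4H4, an H4 gene whose symbol lies outside the member rule, not called in either pair. In A549 spheroids 4 of the 12 were called lower and 0 higher. They were CENPA, the centromeric H3 (11 spheroid and 605 adherent reads, -5.60), H2AFX (-2.40), H2AFY2 (-1.65) and H2AFZ (-1.43). H1FX, not called, had -0.93. In the H1993 pair CENPA (-1.25) and H2AFY2 (-2.76) were called lower.

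The 7 members listed as reported to form polyadenylated transcripts were HIST1H1C, HIST1H2AC, HIST1H2BC, HIST1H2BD, HIST1H2BJ, HIST1H2BK and HIST2H2BE. In the A549 pair 2 of the 7 were called higher and 1 lower, against 12.4% and 10.3% of all genes. In the H1993 pair 4 were called higher and 0 lower, against 17.0% and 18.0%. Their median log2 folds were 0.27 and 1.04, beside 0.28 and 0.89 for the 22. The non-member genes with the profile most like the median of the members over the 4 libraries were RMDN1, NDUFS7, FAM200A, B4GALT3 and PDIA2. Their Euclidean distances after centring log2 levels were 0.078 to 0.09 over these 4 libraries, and PDIA2 had 8 to 21 reads.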

How the data were processed

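Each of the 4 samples was 1 library made with a stranded mRNA kit, per the labels' protocols, and line and culture came from the labels. The build was hg38 per the submitters' processing notes, while aligner and counter were not given in the sources used here. As deposited, the tables hold the authors' counts of total and unique reads per gene, TPM (scaled by exon length, sum 1000000), RPKM and fractions of unique and intronic reads. The counts, and TPM for levels between genes, were used, and RPKM and the deposited fractions entered no comparison. Genes were kept with filterByExpr and scaled by TMM in edgeR 4.0.16 (R 4.3.3), which kept 15273 genes. Culture over both lines was tested with edgeR's quasi-likelihood test and Benjamini-Hochberg adjustment, with line as the block, and with DESeq2 1.42.0 as alternative. The line pairs the samples, since the cells of each pair carry one line's label. A floor of 3 reads was 0.173 to 0.196 CPM per library. Reads carry no molecular identifiers, so PCR copies count as reads and intervals cover counting error only. The fit and the intervals were tested on simulated data. The simulated dispersions lay below the common dispersion of 0.233 fitted to these data, so they do not show how the fit performs here. The members and gene lists were chosen with earlier results of these data known. Genes named were those with the highest TPM, the 5 highest and 5 lowest folds per pair among members with at least 100 reads, the H1 members, the listed polyadenylated members, opposite calls and members at the limit, and up to 5 per other list by A549 fold beside SLBP, NPAT and CASP8AP2. Others, such as members called by the rule, were named after their values were seen.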

Additional observations from a re-analysis of the deposited data

Results flagged for a closer look

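2 members were called in opposite directions in the 2 lines, and the difference between the lines was not tested. No share of all genes with opposite calls is given, so this count does not show if members differ from other genes. HIST1H3E had a log2 fold of 1.66 in A549 spheroids over A549 adherent cells (216 and 64 reads) and -1.02 in H1993 spheroids over the library labelled H1993 adherent (39 and 92 reads). HIST2H2AC had a fitted log2 fold of -2.62 in the A549 pair, from 0 and 10 reads, where the value depends on the prior count, and 1.79 in the H1993 pair, from 29 and 8 reads. The H1993 values rest on the library labelled H1993 adherent. Between the spheroid libraries alone, H1993 over A549, HIST1H3E had a log2 fold of -2.30 and HIST2H2AC was at least 10.5-fold higher.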

How the results depend on the processing

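Of the values that sum up a comparison, 106 stayed within their limits under an alternative and 38 moved. Members called in the A549 pair, 5 higher and 2 lower, became 1 higher and 1 lower at 4-fold and 4 higher and 5 lower with no filter. The lower count was 0 with at least 100 reads, 1 on unique reads and 4 at 1.5-fold. In the H1993 pair, 11 higher and 1 lower became 17 and 2 with no filter, and the higher count was 7 with at least 100 reads, 7 on unique reads and 3 at 4-fold, while the lower count was 0 with at least 100 reads and at 4-fold. Its median of 0.89 was 1.48 with at least 100 reads. For H1993 over A549 spheroids, 10 higher became 17 with no filter, 6 with at least 100 reads, 6 on unique reads and 5 at 4-fold, and 2 lower became 1 at 4-fold. For the libraries labelled adherent, 2 higher became 1 with at least 100 reads, 1 on unique reads, 6 at 1.5-fold and 0 at 4-fold, and 0 lower became 1 at 1.5-fold. On unique reads 10.1% of all genes were lower in the A549 pair and 6.84% higher between the libraries labelled adherent. With no filter 12.4% were lower in the H1993 pair. For 1.5-fold, 4-fold and at least 100 reads no share of all genes is given, so those counts do not show if members differ from other genes.

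The summed log2 ratio of 0.73 in the A549 pair was 0.62 by library size only, 0.85 on unique reads and 0.38 as a sum of TPM. The ratio of 1.32 in the H1993 pair was 1.18 with upper quartile factors, 1.24 on unique reads, 1.46 in TPM, and 1.20 without the 6 duplicated members or without HIST1H1C, both chosen after seeing the data. The ratio of 0.93 between spheroids was 1.02 by library size only, 0.79 with upper quartile factors, 0.75 on unique reads, 1.40 in TPM, 0.76 without the duplicated members and 0.84 without HIST1H1C. Leaving 1 member out of a class or cluster sum, also chosen after seeing the data, turned the direction of several sums. Without HIST1H3E, H3 went to -0.83 in the A549 pair and to 2.07 between spheroids. In the H1993 pair H3 went from -0.03 to 0.58 (0.17 to 1.0) without the same gene. H4 between spheroids went to -0.22 without HIST2H4B, and HIST3 in the A549 pair to 0.16 without HIST3H2A. H2B in the A549 pair went from -0.04 to 0.12 (-0.08 to 0.32) without HIST1H2BK. The cause of these moves was not tested. Under library size only, upper quartile factors or a prior count of 5, named members lost a call in 5 cases. These were HIST1H1C in the A549 pair (0.89 by library size only, and just under the limit with a prior count of 5), HIST1H2AC in the H1993 pair (0.98 and 0.90 by library size only and upper quartile factors) and HIST2H4B there (0.99 with upper quartile factors). Calls lost at 4-fold, on unique reads or, in the A549 pair, with no filter are not among these 5. The fit over both lines called 0 members, and also 0 with no replicate block (culture without line). Leaving out a line leaves no residual degrees of freedom, so that alternative was not run as a test and the single pairs stand in its place. The 12 members that did not pass the filter got no call, whatever their interval.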
